A study of Homo sapiens with 34 samples.

Results

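The 10 genes described here encode the contractile and actin-binding proteins of smooth muscle: ACTA2, ACTG2, TAGLN, CNN1, MYH11, MYL9, MYLK, LMOD1, SMTN and CALD1. They were taken by name from 23189 gene symbols in a table of RNA-seq read counts, and each was read from the RefSeq row with the largest total over the libraries used. The cells were H1, an established human embryonic stem cell (ESC) line, carried along the cardiac lineage with the GSK3β inhibitor CHIR99021, then the Wnt inhibitor IWP2, with insulin added at day 7. WT cells carried a lentiviral shRNA against GFP or the empty vector, and in 3 further lines the shRNA was directed at NKX2-5, ZEB2 or ZNF503, with 1 construct per gene chosen for its knockdown. All lines, WT included, had been infected and selected with puromycin. Libraries were made at day 0 (undifferentiated ESCs), day 2 and day 6 for the 4 lines and at day 10 for WT, NKX2-5 shRNA and ZEB2 shRNA, with 2 libraries for each of 15 groups. ZNF503 shRNA at day 10 was not analysed here.

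Smooth muscle contracts when calcium and calmodulin activate a kinase, MYLK, that phosphorylates the regulatory light chain of myosin (MYL9), so that the smooth muscle heavy chain MYH11 can pull on filaments of the actins ACTA2 and ACTG2. TAGLN (transgelin), CNN1 (calponin), CALD1 (caldesmon) and SMTN (smoothelin) bind these filaments, and LMOD1 (leiomodin) starts new ones. Many of these genes are driven by serum response factor (SRF), which binds a DNA element called the CArG box, together with its coactivator myocardin (MYOCD). Several of them, ACTA2, TAGLN and CNN1 among them, are also transcribed for a time in early cardiomyocytes (CMs), and CALD1 and MYLK have isoforms in cells that are not muscle. SMTN reads were also present in undifferentiated ESCs here. The RNA of ACTA2, TAGLN, CNN1, CALD1, MYLK or SMTN thus does not mark smooth muscle cells by itself. Whether that of the other genes of the set does was not tested here.

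The genes lie on 10 chromosomes of GRCh37, the build of the read mapping: ACTA2 at chr10:90694831-90751096, ACTG2 at chr2:74119441-74146992, TAGLN at chr11:117070086-117078180, CNN1 at chr19:11649582-11661138, MYH11 at chr16:15796992-15950885, MYL9 at chr20:35169900-35179850, MYLK at chr3:123328896-123603179, LMOD1 at chr1:201865584-201915676, SMTN at chr22:31460091-31500743 and CALD1 at chr7:134429003-134655480. Promoter sequences from RefSeq (GRCh38.p14, the 250 bases before a start site) were found for ACTA2, ACTG2, CNN1, MYLK, LMOD1, SMTN and CALD1. Among them, the CArG box (CC, then 6 bases of A or T, then GG, which reads the same on both strands) was found upstream of ACTG2, MYLK and SMTN. No sequence was available for TAGLN, MYH11 and MYL9, which were not searched. Only exact matches counted. 1 ACTA2 window holds ccctatatgg and ccttgtttgg, which both fall just outside the pattern. The search thus does not show that ACTA2 lacks such an element. ACTG2, MYLK and SMTN are also the 3 genes of the set with the largest log2 differences above WT in NKX2-5 shRNA cells at day 10. A link between motif and level was not tested. Windows were taken by gene, and the row counted was not matched to a start site. The MYLK window may thus be that of its short transcripts and not of the long one counted. Gene ranges above are in GRCh37 and windows in GRCh38, so their positions cannot be compared directly. Their promoters are shown, 5′ to 3′ on the gene's strand, with the CArG boxes in capitals. The windows are chr2:73892758-73893007 on the plus strand for ACTG2, chr3:123620549-123620798 on the minus strand for MYLK and chr22:31084746-31084995 on the plus strand for SMTN, 1 of 4 SMTN start sites.
ACTG2: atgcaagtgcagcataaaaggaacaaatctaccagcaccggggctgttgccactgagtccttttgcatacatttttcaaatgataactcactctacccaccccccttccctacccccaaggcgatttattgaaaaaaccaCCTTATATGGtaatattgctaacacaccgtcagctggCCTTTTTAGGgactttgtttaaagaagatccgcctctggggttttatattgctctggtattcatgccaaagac
MYLK: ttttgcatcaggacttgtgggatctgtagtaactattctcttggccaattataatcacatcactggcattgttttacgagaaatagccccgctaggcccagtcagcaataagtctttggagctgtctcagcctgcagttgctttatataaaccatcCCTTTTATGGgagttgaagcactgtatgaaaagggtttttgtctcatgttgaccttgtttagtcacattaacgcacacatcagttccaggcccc
SMTN: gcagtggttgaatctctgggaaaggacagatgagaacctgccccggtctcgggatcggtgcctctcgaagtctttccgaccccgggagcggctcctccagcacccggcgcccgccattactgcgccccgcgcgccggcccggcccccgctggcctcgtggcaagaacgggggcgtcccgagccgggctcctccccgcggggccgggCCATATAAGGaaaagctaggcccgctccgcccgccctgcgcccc
The ACTG2 window held 2 boxes, at -110 to -101 (CCTTATATGG) and -73 to -64 (CCTTTTTAGG) from the start site, where -1 is the base before it, the MYLK window held 1 at -94 to -85 (CCTTTTATGG) and the SMTN window held 1 at -44 to -35 (CCATATAAGG). Of all 35116 promoters of that length, 407 (1.16%) held the motif. The E-box CACCTG, a motif bound by ZEB2, was searched on both strands and lay in 1 of the 4 SMTN windows only, against 17.5% of all promoters. The motif CAAGTG, bound by NKX2-5 and also searched on both strands, lay in 1 ACTA2 window, in the ACTG2 window and in another SMTN window, against 9.5% of all promoters. A match describes letters in the window and was not tested for binding.

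Each library held 9189943 to 90814577 counts, and levels are given as CPM, edgeR's measure of counts relative to library size, after TMM scaling. At day 10 the upper limit that a count of 0 allows, 3 counts, came to 0.0927 to 0.323 CPM, and at the other days to 0.0336 to 0.221 CPM. A comparison was called by the thresholds in the study's methods, which were 2-fold with a false discovery rate (FDR) of 10% at day 0, 4-fold with 10% at day 2 and 8-fold with 1% at days 6 and 10, from edgeR's quasi-likelihood test, with p-values adjusted by Benjamini-Hochberg over every gene in the fit. Calls at 5% FDR with no fold threshold are given beside these, and "passed at 5% FDR" always means the latter. The targeted genes were checked first. NKX2-5 was at 67.3 CPM in WT and 0.877 CPM in NKX2-5 shRNA cells at day 6, and at 137 and 1.89 CPM at day 10. ZNF503 was at 9.02 CPM in WT and 0.629 CPM in ZNF503 shRNA cells at day 6, and at 0.745 CPM in NKX2-5 shRNA cells. ZEB2 was at 95.4 CPM in WT and 55.8 CPM in ZEB2 shRNA cells at day 6, and at 111 and 55 CPM at day 10, where the difference missed 5% FDR (log2 -1.02 ± 0.34, edgeR adjusted p = 0.0793). ZEB2 was lower still in the other lines at day 6, at 20.5 CPM with NKX2-5 shRNA and 11.8 CPM with ZNF503 shRNA. At day 0 the targeted genes were at most 0.316 CPM as group means in WT and in their own line, and none differed at 5% FDR. At day 2 ZEB2 was at 17.9 CPM in WT, 11.9 CPM in its own line (adjusted p = 0.185) and 4.44 CPM in NKX2-5 shRNA cells, ZNF503 was at 1.53 CPM in WT and 1.38 CPM in its own line (adjusted p = 0.714), and NKX2-5 had too few counts to be tested. The differences at days 0 and 2 below are thus between WT and lines whose targeted gene was not shown to be lower. The cell labels were checked against markers: the 5 pluripotency markers in the table summed to 3647 to 4316 CPM at day 0, and 9 CM markers summed to 15765 to 18943 CPM in WT at day 10. With 2 libraries per group, each p-value rests on the spread between replicate libraries. That spread is pooled by edgeR over all groups of a fit, with information shared between genes. In bulk RNA, fewer cells of a type and less RNA per cell cannot be told apart.

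In WT cells, ACTA2, TAGLN, CNN1, MYL9 and LMOD1 came up together between day 2 and day 6, whereas MYLK fell from day 0 on and SMTN stayed near 10 CPM. The question was how the set behaves as ESCs become cardiac cells. ACTA2, the vascular smooth muscle actin, was at 0.534 and 0.209 CPM at day 0, 0.129 and 0 CPM at day 2, 551 and 369 CPM at day 6 and 523 and 384 CPM at day 10. Its 4 counts at day 2 gave a ratio of day 6 to day 2 of 5141, with a 95% counting interval of 2008 to 18870. The day 6 and day 10 libraries overlapped, with a log2 change of 0.01 ± 0.22 (adjusted p = 0.974) whose sign varied with the normalization. ACTG2, the enteric actin, stayed low, at 0.213 and 0.105 CPM at day 0, 0 and 0.184 CPM at day 2, 0.39 and 0.818 CPM at day 6 and 3.04 and 1.29 CPM at day 10. It rose from day 0 to day 10 by 3.85 ± 0.79 on the log2 scale (adjusted p = 0.00133), or by 3.05 without WT day 10 replicate 3. Its change from day 6 to day 10 of 1.87 ± 0.69 (adjusted p = 0.0395) was 1.07 (adjusted p = 0.359) without WT day 10 replicate 3, was also lost without WT day 6 replicate 1 (adjusted p = 0.187), WT day 6 replicate 2 (0.0723) or either WT day 0 library (0.0592 and 0.058), and was lost with DESeq2 (adjusted p = 0.0799).

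Among the myosin genes, MYL9 was at 10.4 and 11 CPM at day 0, 16.7 and 20.5 CPM at day 2, 366 and 323 CPM at day 6 and 419 and 400 CPM at day 10. It rose from day 2 to day 6 by 4.20 ± 0.14 on the log2 scale (adjusted p = 6.2e-09), and every day 6 and day 10 library lay above every earlier one. MYH11 remained scarce, at 1.25 and 0.811 CPM at day 0, 0.354 and 0.429 CPM at day 2, 1.21 and 1.9 CPM at day 6 and 6.75 and 2.47 CPM at day 10. Its change from day 6 to day 10 (log2 1.62 ± 0.47, adjusted p = 0.0138) was 0.68 (adjusted p = 0.305) without WT day 10 replicate 3, the library at 6.75 CPM, and 1.36 (adjusted p = 0.0852) without WT day 6 replicate 1. MYLK moved the other way, from 28.5 and 31.7 CPM at day 0 through 10.9 and 13.5 CPM at day 2 and 3.68 and 4.43 CPM at day 6 to 2.53 and 1.29 CPM at day 10. No library of a later day reached a library of an earlier one, and the fall from day 0 to day 10 was 3.82 on the log2 scale (SE 0.28, adjusted p = 6.7e-07), or log2 -4.48 without WT day 10 replicate 3. Its last step, from day 6 to day 10 (log2 -0.97 ± 0.29, adjusted p = 0.0152), was lost without WT day 6 replicate 2 (adjusted p = 0.078) or WT day 10 replicate 4 (0.0537) and with its smallest row (0.504), and was log2 -1.63 without WT day 10 replicate 3.

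Among the genes for actin-binding proteins, CNN1 was at 6.32 and 5.15 CPM at day 0, 2.73 and 2.39 CPM at day 2, 108 and 85.9 CPM at day 6 and 62.8 and 46.8 CPM at day 10. TAGLN was at 28.9 and 24.3 CPM at day 0, 40.4 and 45.4 CPM at day 2, 451 and 345 CPM at day 6 and 293 and 176 CPM at day 10. LMOD1 was at 1.28 and 1.15 CPM at day 0, 0.74 and 0.613 CPM at day 2, 78.9 and 63.7 CPM at day 6 and 37.5 and 43 CPM at day 10. These 3 genes peaked at day 6: from day 2 they rose by 5.20 ± 0.22, 3.20 ± 0.23 and 6.66 ± 0.23 on the log2 scale (adjusted p = 3.3e-08, 1.7e-06 and 7.7e-09), and from day 6 to day 10 they fell by 0.79, 0.73 and 0.80 (SE 0.17, 0.21 and 0.15, adjusted p = 0.00314, 0.0138 and 0.00147). The later fall of TAGLN was lost without WT day 6 replicate 1 (log2 -0.52, adjusted p = 0.114). CALD1, the most highly counted of the set, was at 420 and 419 CPM at day 0, 110 and 106 CPM at day 2, 487 and 591 CPM at day 6 and 333 and 245 CPM at day 10, so that day 2 was a trough that no other day overlapped. SMTN ranged from 6.07 to 13.7 CPM over all 8 WT libraries. From day 2 to day 6, 5 of the 10 genes were called, all higher, against 8.35% of all genes tested, and 9 passed at 5% FDR (8 higher and 1 lower) against 49.8%. From day 0 to day 6, 5 were called against 10.2% and 7 passed at 5% FDR against 60.9%, and from day 0 to day 10, 7 were called (6 higher and 1 lower) against 15.5% and all 10 passed against 73.8%. From day 0 to day 2 edgeR called none, against 8.36% of all genes, DESeq2 called 1, 6 passed at 5% FDR against 44.1% and 7 had an unadjusted p under 0.05. Between day 6 and day 10 edgeR and DESeq2 called none, against 3.94%, while 7 passed at 5% FDR against 57.5% and 9 had an unadjusted p under 0.05.

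**Figure D1:**
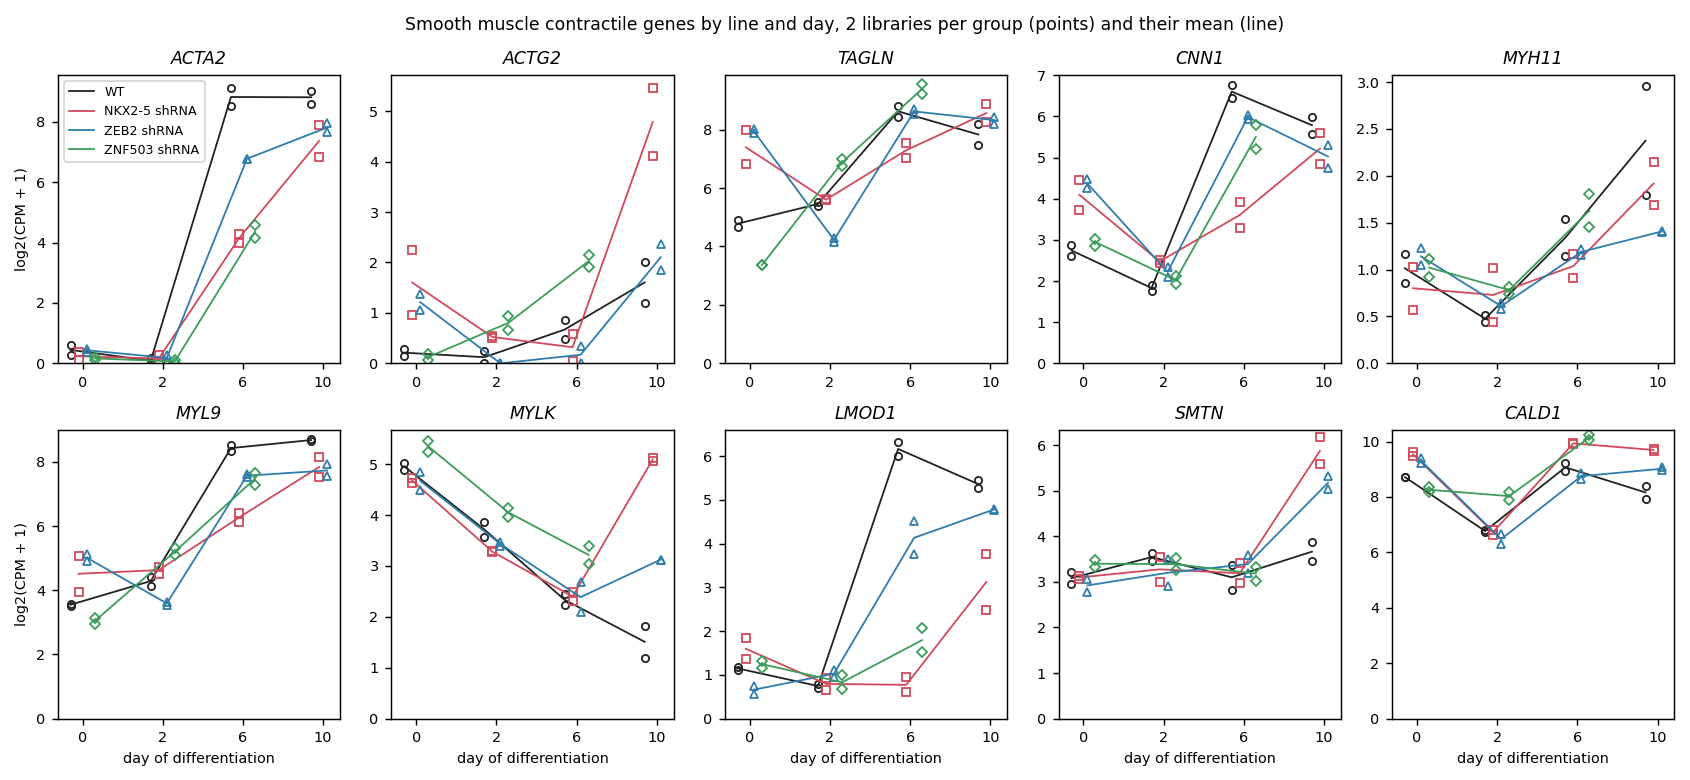
Each panel plots 1 gene as log2(CPM + 1) against the day of differentiation (days are evenly spaced), with 1 point per library and a line through the mean of the 2 libraries of each group, coloured by line. In WT the points of ACTA2 lie at 551 and 369 CPM at day 6, above those of the 3 shRNA lines, while for MYLK the NKX2-5 shRNA points at day 10, at 34 and 32.3 CPM, stand above all other libraries of that day.

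At day 0, before differentiation, TAGLN was already higher in NKX2-5 shRNA and ZEB2 shRNA cells than in WT, and lower in ZNF503 shRNA cells. TAGLN was at 112 and 251 CPM in NKX2-5 shRNA, 235 and 257 CPM in ZEB2 shRNA and 9.26 and 9.29 CPM in ZNF503 shRNA cells, against 28.9 and 24.3 CPM in WT, with no overlap between lines except of NKX2-5 shRNA with ZEB2 shRNA. The log2 fold changes were 2.75 ± 0.28 (adjusted p = 0.000153), 3.18 ± 0.28 (adjusted p = 9.5e-05) and -1.53 ± 0.28 (adjusted p = 0.01). CNN1 was at 12.3 and 21 CPM in NKX2-5 shRNA and 18.2 and 21.3 CPM in ZEB2 shRNA cells, against 6.32 and 5.15 CPM in WT, and rose by 1.53 ± 0.23 and 1.75 ± 0.23 (adjusted p = 0.00167 and 0.00148). MYL9, the light chain, was at 14.5 and 32.6 CPM and at 33.9 and 29 CPM in these lines, against 10.4 and 11 CPM in WT, a log2 difference of 1.13 ± 0.28 and 1.53 ± 0.28 (adjusted p = 0.0184 and 0.0105). ACTG2 was at 0.95 and 3.73 CPM and at 1.6 and 1.07 CPM, against 0.213 and 0.105 CPM in WT, which is a log2 difference of 3.87 ± 0.70 and 3.04 ± 0.71 (adjusted p = 0.0042 and 0.0359). For these 4 genes every library of both knockdown lines lay above both WT libraries.

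CALD1 differed by less, at 712 and 778 CPM in NKX2-5 shRNA, 595 and 675 CPM in ZEB2 shRNA and 286 and 327 CPM in ZNF503 shRNA cells, against 420 and 419 CPM in WT. In NKX2-5 shRNA and ZEB2 shRNA cells 4 of the 10 genes were called each, all higher, against 4.03% and 2.2% of all genes tested, and in ZNF503 shRNA cells TAGLN alone was called, against 2.56%. At 5% FDR 5, 5 and 2 genes passed, against 15.9%, 3.93% and 7.53%. The TAGLN, ACTG2 and MYL9 values of the 2 NKX2-5 shRNA libraries lay far apart: without NKX2-5 shRNA day 0 replicate 2 the differences were 2.05 for TAGLN, 2.55 for ACTG2 and 0.42 for MYL9, the last no longer past 5% FDR (adjusted p = 0.108). MYL9 in NKX2-5 shRNA cells was also lost without either WT library (adjusted p = 0.117 and 0.0947), and ACTG2 without WT day 0 replicate 2 (3.45, adjusted p = 0.0536). ACTG2 was 4.46 without WT day 0 replicate 1 and 4.52 without NKX2-5 shRNA day 0 replicate 1. For ZEB2 shRNA, MYL9 was lost without any 1 of the ZEB2 shRNA or WT libraries (adjusted p = 0.0586 to 0.0941), ACTG2 without any 1 of these or of the ZNF503 shRNA libraries in the same fit (adjusted p = 0.0578 to 0.282, with a log2 difference of 3.63 without WT day 0 replicate 1) and CALD1 without either WT library or ZEB2 shRNA replicate 2 (0.0564 to 0.0948). In ZNF503 shRNA cells TAGLN was lost without either ZNF503 shRNA library or WT replicate 1 (0.076 to 0.129) and CALD1 without any of the 4 libraries compared (0.0926 to 0.155). ACTG2 in ZEB2 shRNA cells was also lost with the replicate number as a block (adjusted p = 0.055) and in 1 fit of all libraries (0.087), as was CALD1 in ZNF503 shRNA cells in that fit (0.108).

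At day 2 the picture of TAGLN had turned: ZEB2 shRNA cells were now below WT and ZNF503 shRNA cells above it. TAGLN was at 16.7 and 18.8 CPM in ZEB2 shRNA and 126 and 107 CPM in ZNF503 shRNA cells, against 40.4 and 45.4 CPM in WT (log2 -1.31 ± 0.12 and 1.39 ± 0.11, adjusted p = 3.3e-05 and 4.6e-07). MYL9 followed the same order, at 10.6 and 11.5 CPM, 38.8 and 33 CPM, and 16.7 and 20.5 CPM in WT (log2 -0.78 ± 0.15 and 0.90 ± 0.15, adjusted p = 0.0339 and 0.000372). CALD1 was higher in ZNF503 shRNA cells, at 287 and 236 CPM against 110 and 106 CPM in WT (log2 1.22 ± 0.11, adjusted p = 1.8e-06). ACTG2 had no count in either ZEB2 shRNA library, was at 0.461 and 0.413 CPM in NKX2-5 shRNA and 0.921 and 0.585 CPM in ZNF503 shRNA cells, and had 3 counts in all in WT. The ratio to WT was 7.05 (95% counting interval 2.23 to 35.8) for NKX2-5 shRNA and 13.5 (4.48 to 66.6) for ZNF503 shRNA cells. Against the floor of 3 counts per library, ZNF503 shRNA cells were at least 9.69-fold higher than ZEB2 shRNA cells and NKX2-5 shRNA cells at least 5.62-fold higher.

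The only call at day 2 was ACTG2, in NKX2-5 shRNA (adjusted p = 0.0551) and ZNF503 shRNA cells (adjusted p = 0.01), so 1 of 9 genes tested was called in each, against 1.19% and 2.8% of all genes. For ZEB2 shRNA edgeR and DESeq2 called none, against 0.133%, with 4 genes at an unadjusted p under 0.05. The ACTG2 call in NKX2-5 shRNA cells was lost with DESeq2, with the smallest row, with the row chosen over all deposited columns and in 1 fit of all libraries. ACTA2 had too few counts to be tested at this day. At 5% FDR 2, 2 and 4 genes passed in NKX2-5 shRNA, ZEB2 shRNA and ZNF503 shRNA cells, against 26.7%, 0.49% and 26.9%. In NKX2-5 shRNA cells these were CNN1 (4.46 and 4.66 CPM against 2.73 and 2.39 CPM, log2 0.78 ± 0.24, adjusted p = 0.0251) and MYLK (8.77 and 8.67 CPM against 10.9 and 13.5 CPM, log2 -0.51 ± 0.16, adjusted p = 0.0342). Both were lost without single libraries, CNN1 without any of the 4 libraries compared (adjusted p = 0.0712 to 0.133) and MYLK without either NKX2-5 shRNA library or WT replicate 2 (0.0726 to 0.272), and both were lost in 1 fit of all libraries (0.133 and 0.162). CNN1 was also lost without scaling factors (0.0563) and MYLK with its smallest row (0.12). MYL9 in ZEB2 shRNA cells was lost without any of the ZEB2 shRNA, WT or ZNF503 shRNA libraries (0.0591 to 0.417), and in 1 fit of all libraries both it (0.816) and TAGLN in ZEB2 shRNA cells (0.112) were lost.

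At day 6, when the set had come up in WT, LMOD1, ACTA2 and CNN1 were far lower in NKX2-5 shRNA cells, LMOD1 and ACTA2 far lower in ZNF503 shRNA cells, and ZEB2 shRNA cells lay between these and WT. ACTA2 was at 15 and 18.4 CPM in NKX2-5 shRNA, 22.9 and 16.6 CPM in ZNF503 shRNA and 109 and 108 CPM in ZEB2 shRNA cells, against 551 and 369 CPM in WT (460 ± 129, SD, n = 2). The log2 fold changes were -4.78 ± 0.22 (adjusted p = 6.5e-09), -4.55 ± 0.22 (adjusted p = 1.4e-08) and -2.08 ± 0.19 (adjusted p = 2.5e-05). NKX2-5 shRNA and ZNF503 shRNA cells overlapped, and each other pair of lines was apart. LMOD1, the filament nucleator, was at 0.515 and 0.921 CPM in NKX2-5 shRNA, 3.21 and 1.86 CPM in ZNF503 shRNA and 21.9 and 12.5 CPM in ZEB2 shRNA cells, against 78.9 and 63.7 CPM in WT, with no overlap between any pair of lines. Its log2 fold changes against WT were -6.55 ± 0.35 (adjusted p = 2.8e-08), -4.84 ± 0.32 (adjusted p = 2.2e-07) and -2.02 ± 0.27 (adjusted p = 0.000352).

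CNN1 was at 8.75 and 14.2 CPM in NKX2-5 shRNA, 54.7 and 35.9 CPM in ZNF503 shRNA and 60.1 and 64.5 CPM in ZEB2 shRNA cells, against 108 and 85.9 CPM in WT (log2 -3.07 ± 0.24, -1.10 ± 0.22 and -0.63 ± 0.22, adjusted p = 6.9e-07, 0.00134 and 0.0958), so that the ZEB2 shRNA line missed 5% FDR though its libraries lay below both WT libraries. MYL9 was lower in all 3 lines, at 69.1 and 83.4 CPM, 201 and 156 CPM and 184 and 194 CPM, against 366 and 323 CPM in WT (log2 -2.18 ± 0.15, -0.95 ± 0.14 and -0.86 ± 0.14, adjusted p = 1.6e-07, 0.000123 and 0.00155). The lines thus overlapped at MYL9 only between ZNF503 shRNA and ZEB2 shRNA cells. TAGLN separated the 2 lines in which ACTA2 was lowest: it was at 130 and 187 CPM in NKX2-5 shRNA cells and at 762 and 598 CPM in ZNF503 shRNA cells, on either side of WT at 451 and 345 CPM (log2 -1.34 ± 0.19 and 0.77 ± 0.18, adjusted p = 8.1e-05 and 0.00391). In ZEB2 shRNA cells TAGLN, at 370 and 418 CPM, lay within the WT range.

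CALD1 was higher in NKX2-5 shRNA and ZNF503 shRNA cells, at 983 and 974 CPM and at 1069 and 1201 CPM, against 487 and 591 CPM in WT (log2 0.85 ± 0.12 and 1.07 ± 0.13, adjusted p = 0.000116 and 2.1e-05). In ZNF503 shRNA cells 2 scarce genes were higher as well: ACTG2, at 3.41 and 2.76 CPM against 0.39 and 0.818 CPM (log2 2.27 ± 0.67, adjusted p = 0.0122), and MYLK, at 9.51 and 7.21 CPM against 3.68 and 4.43 CPM (log2 1.03 ± 0.28, adjusted p = 0.0085). Of the 10 genes, 3 were called in NKX2-5 shRNA, 2 in ZNF503 shRNA and none in ZEB2 shRNA cells, against 4.71%, 3.91% and 0.462% of all genes, all of them lower than WT. DESeq2 called none in ZEB2 shRNA cells either, where 5 genes had an unadjusted p under 0.05. At 5% FDR 6 genes (5 lower and 1 higher), 8 genes (4 lower and 4 higher) and 3 genes (all lower) passed, against 49.1%, 55.7% and 11%. The median log2 fold change of the 10 genes was -1.18 in NKX2-5 shRNA, 0.23 in ZNF503 shRNA and -0.48 in ZEB2 shRNA cells, where that of all genes was -0.0016, -0.03 and 0.01. MYH11 passed no comparison with WT at any day in the day's own fit. The ZNF503 shRNA passes at 5% FDR of ACTG2 (adjusted p = 0.0796), TAGLN (0.056) and MYLK (0.0731) were lost without ZNF503 shRNA day 6 replicate 1, ACTG2 also without WT day 6 replicate 1 (0.07), and ACTG2 was 2.95 without WT day 6 replicate 2. MYLK in ZNF503 shRNA cells was also lost with its smallest row (log2 0.66, adjusted p = 0.299).

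**Figure D2:**
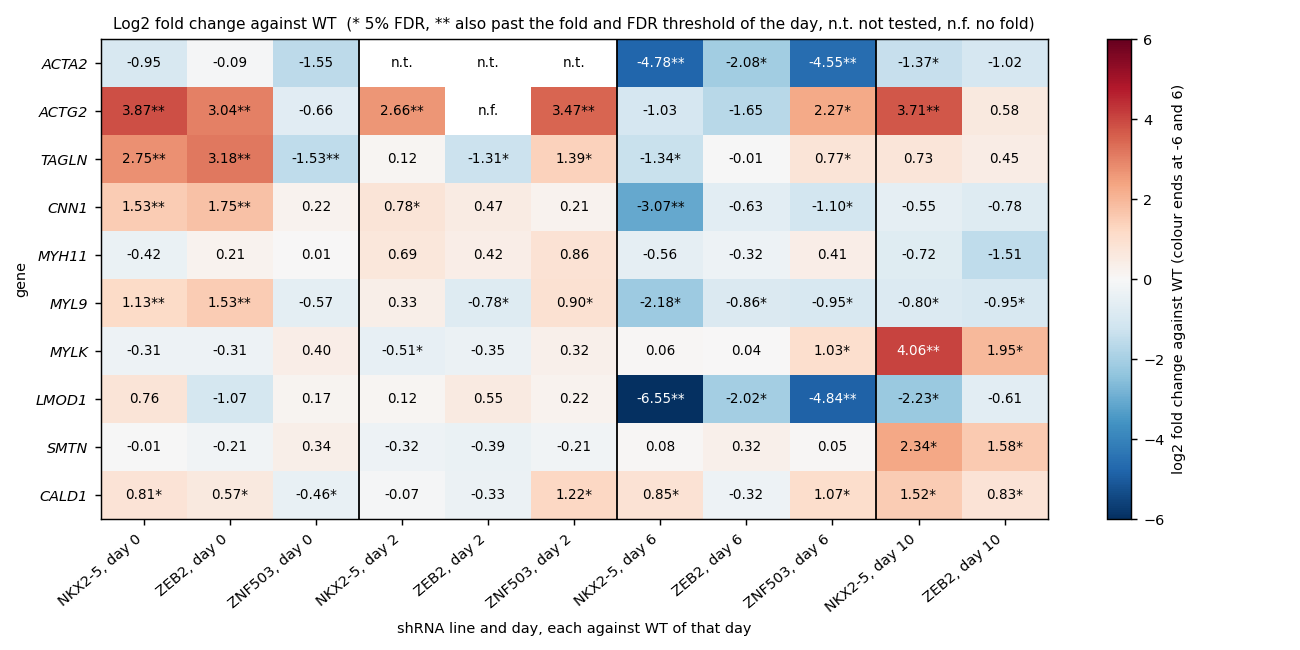
The heat map gives the log2 fold change of each gene (rows) in each shRNA line against WT of the same day (columns), with blue for lower and red for higher than WT. Stars mark 5% FDR (1) and the threshold of the day (2), n.t. a gene with too few counts to be tested and n.f. a group with no count in any library, for which no fold is given. At day 6 the blue of ACTA2 and LMOD1 (-4.78 and -6.55 in NKX2-5 shRNA) is the deepest, and at day 10 the red of MYLK and ACTG2 (4.06 and 3.71) stands beside it.

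The knockdown lines were also compared with each other at day 6. LMOD1 was lower in NKX2-5 shRNA than in ZEB2 shRNA cells by a called difference (log2 -4.53 ± 0.35, adjusted p = 5.3e-07), which was 1 of 10 genes against 4.59% of all genes. ACTG2 was called lower with NKX2-5 shRNA (0.0368 and 0.501 CPM) and with ZEB2 shRNA (0.266 and 0 CPM) than in ZNF503 shRNA cells, with log2 differences of -3.30 ± 0.71 (adjusted p = 0.00998) and -3.92 ± 0.78 (adjusted p = 0.00136), 1 of 10 genes in each case against 0.395% and 3.48%. The first was -2.61 (adjusted p = 0.0509) without NKX2-5 shRNA day 6 replicate 1, -6.23 without NKX2-5 shRNA day 6 replicate 2 and lost without ZNF503 shRNA day 6 replicate 1 (0.0865). The second was -9.45 without ZEB2 shRNA day 6 replicate 1, which left a group with no count. At 5% FDR NKX2-5 shRNA and ZNF503 shRNA cells differed at 6 genes against 14.7% of all genes: TAGLN (log2 -2.10 ± 0.19), CNN1 (-1.96 ± 0.24), MYL9 (-1.23 ± 0.14), LMOD1 (-1.71 ± 0.40), MYLK (-0.97 ± 0.28) and ACTG2, all lower in NKX2-5 shRNA cells. NKX2-5 shRNA differed from ZEB2 shRNA at 6 genes against 44.4% (5 lower, with ACTA2 at log2 -2.71 ± 0.20 and CNN1 at -2.43 ± 0.24, and CALD1 higher at 1.17 ± 0.13), and ZEB2 shRNA from ZNF503 shRNA at 6 genes against 49.2%, with ACTA2 (log2 2.48 ± 0.20) and LMOD1 (2.82 ± 0.31) higher and TAGLN, MYLK, CALD1 and ACTG2 lower. In the latter comparison TAGLN and MYLK were lost without ZEB2 shRNA replicate 1 (adjusted p = 0.0551 and 0.166) or ZNF503 shRNA replicate 1 (0.0587 and 0.0972), and MYLK with its smallest row (0.195). Of the genes that differed between NKX2-5 shRNA and ZNF503 shRNA cells, LMOD1 was lost without ZNF503 shRNA replicate 1 (adjusted p = 0.181) or NKX2-5 shRNA replicate 1 (0.0688), and MYLK without any of these or NKX2-5 shRNA replicate 2 (0.107 to 0.223), with its smallest row (0.445) and with the replicate block (0.051).

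The way each line went from day 0 to day 6 also differed from WT. Between day 0 and day 2 TAGLN fell in ZEB2 shRNA cells, from 235 and 257 CPM to 16.7 and 18.8 CPM (log2 -3.83 ± 0.12, adjusted p = 2.7e-11), and rose in ZNF503 shRNA cells, from 9.26 and 9.29 CPM to 126 and 107 CPM (log2 3.69 ± 0.14, adjusted p = 1.8e-10). MYL9 rose with it in ZNF503 shRNA cells (log2 2.35 ± 0.15, adjusted p = 3.3e-08), and ACTG2 was at least 17.2-fold lower at day 2 than at day 0 in ZEB2 shRNA cells, where it then had no count. Over this interval the called genes were 2 in NKX2-5 shRNA (both lower), 4 in ZEB2 shRNA (all lower) and 3 in ZNF503 shRNA cells (all higher), against 8.94%, 10.7% and 4.03% of all genes, and 4, 8 and 5 passed at 5% FDR against 28.3%, 56.9% and 31.6%. The difference from WT in the change was called for 1, 2 and 2 genes, against 0.934%, 0.502% and 3.4%, and passed at 5% FDR for 2, 3 and 3 against 3.99%, 1.83% and 25%. These include TAGLN in all 3 lines, at log2 -2.63 ± 0.33, -4.48 ± 0.34 and 2.94 ± 0.34 (adjusted p = 0.00015, 2.8e-06 and 8.5e-06), the first -1.92 without NKX2-5 shRNA day 0 replicate 2.

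Between day 2 and day 6 ACTA2 came up in every line, with ratios of 199 (95% counting interval 96.1 to 495) in NKX2-5 shRNA, 270 (136 to 627) in ZNF503 shRNA and 769 (430 to 1541) in ZEB2 shRNA cells, beside the 5141 of WT. LMOD1, by contrast, went from 0.903 and 0.578 CPM to 0.515 and 0.921 CPM in NKX2-5 shRNA cells and did not pass, while it rose in ZEB2 shRNA (log2 4.07 ± 0.29, adjusted p = 3.7e-08) and ZNF503 shRNA cells (log2 1.57 ± 0.39, adjusted p = 0.00258). Called genes were 2, 5 and 2 in NKX2-5 shRNA, ZEB2 shRNA and ZNF503 shRNA cells, all higher, against 9.04%, 8.14% and 9.82%, and 6, 9 and 9 passed at 5% FDR against 47.9%, 48.7% and 65.9%. The change differed from that of WT by a called amount for LMOD1 in NKX2-5 shRNA (log2 -6.71 ± 0.56, adjusted p = 8.5e-08) and ZNF503 shRNA cells (-5.10 ± 0.52, adjusted p = 6.8e-07) and for CNN1 in NKX2-5 shRNA cells (-3.85 ± 0.34, adjusted p = 1.7e-07), which is 2 and 1 genes against 3.78% and 3.81%. At 5% FDR 7 and 5 genes passed against 46% and 48.2%. ACTA2 was among them without being called, at log2 -4.81 ± 1.47 (edgeR adjusted p = 0.0133) in NKX2-5 shRNA and -4.27 ± 1.38 (0.0176) in ZNF503 shRNA cells. In 1 of 16 fits each with a library left out, these values were -3.56 and -0.0093, and the pass was lost. ACTA2 had 8 counts in ZNF503 shRNA cells at day 2, all in 1 library. A fit without that library leaves a group with no count, so its value does not show a lost effect. In the ZEB2 shRNA line edgeR and DESeq2 called none against 0.225%, 4 genes had an unadjusted p under 0.05, and TAGLN (1.29 ± 0.24, adjusted p = 0.00326) and LMOD1 (-2.58 ± 0.50, adjusted p = 0.00475) passed at 5% FDR against 5.89%.

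By day 10 the set had split in NKX2-5 shRNA cells: MYLK, ACTG2, SMTN and CALD1 stood above WT, and LMOD1, ACTA2 and MYL9 below it. MYLK, the myosin light chain kinase, was at 34 and 32.3 CPM in NKX2-5 shRNA cells and 7.72 and 7.72 CPM in ZEB2 shRNA cells, against 2.53 and 1.29 CPM in WT, with no overlap between lines. Its log2 fold changes were 4.06 ± 0.36 (adjusted p = 0.000349) and 1.95 ± 0.34 (adjusted p = 0.0104). ACTG2 was at 16.3 and 42.8 CPM in NKX2-5 shRNA and 4.14 and 2.6 CPM in ZEB2 shRNA cells, against 3.04 and 1.29 CPM in WT, so that NKX2-5 shRNA cells lay apart from both (log2 3.71 ± 0.61 against WT, adjusted p = 0.00308) while ZEB2 shRNA cells overlapped WT. SMTN was at 71.2 and 47 CPM and at 38.9 and 31.8 CPM, against 9.95 and 13.7 CPM in WT (log2 2.34 ± 0.30 and 1.58 ± 0.29, adjusted p = 0.00124 and 0.0122). CALD1 was at 812 and 845 CPM and at 497 and 538 CPM, against 333 and 245 CPM in WT (log2 1.52 ± 0.22 and 0.83 ± 0.22, adjusted p = 0.00195 and 0.0379). SMTN and CALD1 thus kept the order NKX2-5 shRNA, ZEB2 shRNA, WT with every library apart.

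LMOD1 was at 4.63 and 12.5 CPM in NKX2-5 shRNA and 26.9 and 26.3 CPM in ZEB2 shRNA cells, against 37.5 and 43 CPM in WT. It passed at 5% FDR in NKX2-5 shRNA cells (log2 -2.23 ± 0.42, adjusted p = 0.00559). ACTA2 was at 113 and 238 CPM and at 246 and 203 CPM, against 523 and 384 CPM in WT, with a log2 difference of -1.37 ± 0.35 (adjusted p = 0.0177) with NKX2-5 shRNA and of -1.02 with ZEB2 shRNA. MYL9 was at 182 and 286 CPM and at 241 and 186 CPM, against 419 and 400 CPM in WT (log2 -0.80 ± 0.26 and -0.95 ± 0.26, adjusted p = 0.0388 and 0.0443). For ACTA2 and MYL9 both WT libraries lay above every knockdown library, and the knockdown lines overlapped. TAGLN (303 and 473 CPM in NKX2-5 shRNA, 347 and 295 CPM in ZEB2 shRNA, 293 and 176 CPM in WT) and CNN1 (27.6 and 47.4 CPM, 38.4 and 26 CPM, 62.8 and 46.8 CPM) passed in neither line.

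At the day 10 threshold 2 of the 10 genes were called in NKX2-5 shRNA cells (MYLK and ACTG2), against 7.31% of all genes, and none in ZEB2 shRNA cells by edgeR or DESeq2, against 1.46%, where 7 had an unadjusted p under 0.05. At 5% FDR 7 genes (4 higher and 3 lower) and 4 genes (3 higher and 1 lower) passed, against 43.9% and 18.2%. The medians over the 10 genes were 0.09 and -0.08 on the log2 scale, where those of all genes were 0.03 in both. Between NKX2-5 shRNA and ZEB2 shRNA cells edgeR called none and DESeq2 1, against 1.95%, 5 genes had an unadjusted p under 0.05, and ACTG2 (log2 3.13 ± 0.57, adjusted p = 0.0123), MYLK (2.11 ± 0.31, adjusted p = 0.00658) and LMOD1 (-1.62 ± 0.42, adjusted p = 0.0327) passed at 5% FDR, against 21.3%, each lost without either ZEB2 shRNA library (adjusted p = 0.0755 to 0.151), and LMOD1 also without either WT library (0.0748 and 0.0751). Without NKX2-5 shRNA day 10 replicate 2, the library with the higher ACTA2, ACTG2, MYL9 and LMOD1, the difference from WT was 2.83 for ACTG2, under 8-fold, -1.99 for ACTA2 and -3.10 for LMOD1, and that from ZEB2 shRNA cells was 2.27 for ACTG2 and -2.50 for LMOD1. Without WT day 10 replicate 3 the values in NKX2-5 shRNA cells were 4.51 for ACTG2 and 4.68 for MYLK, and ACTA2 was lost (log2 -1.12, adjusted p = 0.112), as it was without WT replicate 4 (0.0505). MYL9 in NKX2-5 shRNA cells was lost without any library of that fit except NKX2-5 shRNA replicate 2 (0.0757 to 0.141) and without scaling factors (0.0663).

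None of the ZEB2 shRNA passes at day 10 held when each library was left out in turn. SMTN (adjusted p = 0.061 to 0.1), CALD1 (0.0613 to 0.268) and MYL9 (0.149 to 0.33) were lost without any 1 of the 4 ZEB2 shRNA and WT libraries, and MYLK without either ZEB2 shRNA library or WT replicate 4 (0.0545 to 0.0724), with a value of 2.57 without WT replicate 3. MYLK was also lost with its smallest row (log2 0.61, adjusted p = 0.322) and MYL9 without scaling factors (0.101). ACTA2 in ZEB2 shRNA cells, which missed 5% FDR in edgeR, passed in DESeq2 (log2 -1.04, adjusted p = 0.0246), in 1 fit of all libraries (adjusted p = 0.00849) and with the replicate block (adjusted p = 0.00222). CNN1 (log2 -0.77, adjusted p = 0.0161) and MYH11 (log2 -1.38, adjusted p = 0.0488) also passed with that block, and in the 1 fit (0.0289 and 0.0121). The fit with that block held only the WT and ZEB2 shRNA libraries, whose replicate differences correlated at -0.239. Crossing the replicate numbers made 5 of 10 results pass too, so a part of the pairing in these passes was not shown.

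Between day 6 and day 10 several genes of the set changed by more in NKX2-5 shRNA cells than in WT, and MYLK, LMOD1, CNN1 and TAGLN rose in these cells while they fell in WT. In NKX2-5 shRNA cells MYLK went from 4.63 and 3.93 CPM to 34 and 32.3 CPM, where WT went from 3.68 and 4.43 CPM to 2.53 and 1.29 CPM, and ACTA2 went from 15 and 18.4 CPM to 113 and 238 CPM with no called change in WT. Within the line, ACTA2 (log2 3.34 ± 0.45, adjusted p = 0.000901), ACTG2 (6.52 ± 1.00, adjusted p = 0.00153) and LMOD1 (3.49 ± 0.60, adjusted p = 0.00252) were called higher, 3 of 10 genes against 5.53% of all genes, and MYLK (2.91 ± 0.19, adjusted p = 6.6e-05) and SMTN (2.78 ± 0.32, adjusted p = 0.000452) rose by just under 8-fold. At 5% FDR 8 genes passed, all higher, against 49.1%, and the median over the 10 genes was 2.22, where that of all genes was 0.03. Among these, TAGLN (log2 1.24 ± 0.38) was lost without any of 5 of the 8 libraries of the fit (adjusted p = 0.0501 to 0.156), and CNN1 (1.65 ± 0.38) and MYL9 (1.57 ± 0.38) without NKX2-5 shRNA day 6 replicate 1 (0.0652 and 0.0727). The difference between the lines in this change was tested directly, as an interaction term: ACTA2 (3.44 ± 0.46, adjusted p = 0.000687), LMOD1 (4.36 ± 0.62, adjusted p = 0.000938) and MYLK (4.0 ± 0.46, adjusted p = 0.000301) were called, against 2.91% of all genes, and 8 of the 10 genes passed at 5% FDR, all higher in NKX2-5 shRNA cells, against 25%. The other 5 were ACTG2 (4.74 ± 1.16), CNN1 (2.54 ± 0.44), SMTN (2.27 ± 0.42), TAGLN (2.08 ± 0.41) and MYL9 (1.39 ± 0.30). CALD1 and MYH11 did not pass.

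ZEB2 shRNA cells had ACTG2 called higher at day 10 than at day 6 (log2 4.03 ± 0.58, adjusted p = 5.4e-05), from 0.266 and 0 CPM to 4.14 and 2.6 CPM, 1 of 10 genes against 4.1%. SMTN rose there too, from 11 and 8.19 CPM to 38.9 and 31.8 CPM (log2 1.84 ± 0.23, adjusted p = 1.2e-05). The interaction with WT called no gene in edgeR or DESeq2, against 0.355%, with 5 genes at an unadjusted p under 0.05, and passed at 5% FDR for MYLK (1.86 ± 0.46, adjusted p = 0.0402) and CALD1 (1.13 ± 0.23, adjusted p = 0.0213), against 6.29%. Without NKX2-5 shRNA day 10 replicate 2 the within-line changes were 2.74 for ACTA2, 2.61 for LMOD1 and 5.64 for ACTG2, and the interactions 2.80, 3.45 and 3.85. ACTG2 within NKX2-5 shRNA cells was 9.52 without replicate 2 of day 6 and 5.85 without replicate 1, and its interaction 7.65 and 4.05, was lost without WT day 6 replicate 2 (4.08, adjusted p = 0.107) or WT day 10 replicate 4 (0.0536) and was 5.52 without WT day 10 replicate 3, while that of MYLK was 4.59 without the latter. In ZEB2 shRNA cells the change of ACTG2 was 10.19 without replicate 1 of day 6, which left a group with no count, the interaction of MYLK was lost without any of 9 libraries of the fit (0.057 to 0.155) and with its smallest row (0.619) and was 2.55 without WT day 10 replicate 3, and that of CALD1 was lost without any of 5 libraries (0.0694 to 0.104).

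**Figure D3:**
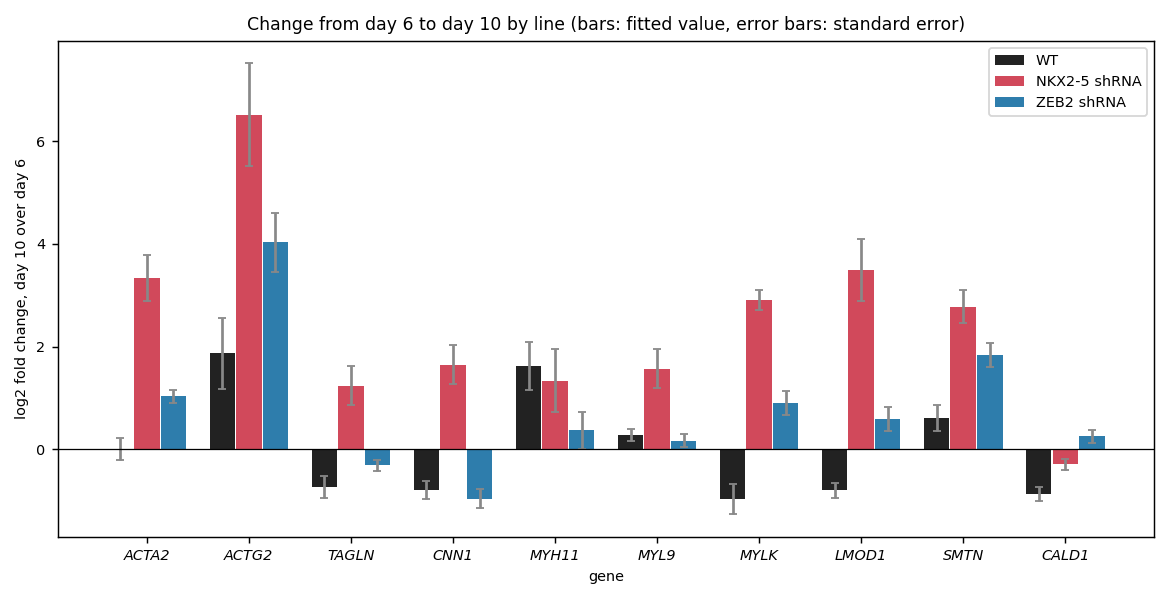
Bars give the fitted log2 fold change of day 10 over day 6 for each gene in WT, NKX2-5 shRNA and ZEB2 shRNA cells, with the standard error as error bar. For MYLK the WT bar points down (-0.97) and the NKX2-5 shRNA bar up (2.91), and for ACTA2 the WT bar is near 0 (0.01) where the NKX2-5 shRNA bar reaches 3.34.

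ACTA2 and ACTG2 were set beside the other 4 actin genes, since the proteins differ at few positions and reads may be shared between them. Per kilobase of transcript, ACTA2 made up 11.3% ± 2.17 (SD, n = 2) of the 6 actins in WT at day 6 and 17.6% ± 3.55 at day 10, second among the muscle actins to the cardiac gene ACTC1 at 45% ± 1.73 and 47.3% ± 0.258. In NKX2-5 shRNA cells ACTA2 was 0.709% ± 0.0477 at day 6 and 4.68% ± 2.13 at day 10, with ACTC1 at 6.28% ± 0.464 and 14.7% ± 7.33. In ZNF503 shRNA cells at day 6 it was 0.607% ± 0.0828, with ACTC1 at 9.72% ± 0.656. In ZEB2 shRNA cells ACTA2 went from 3.58% ± 0.058 to 9.8% ± 0.157 while ACTC1 went from 38.2% ± 1.44 to 12.3% ± 2.35. ACTG2 reached its highest share, 0.704% ± 0.417, in NKX2-5 shRNA cells at day 10.

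**Figure D4:**
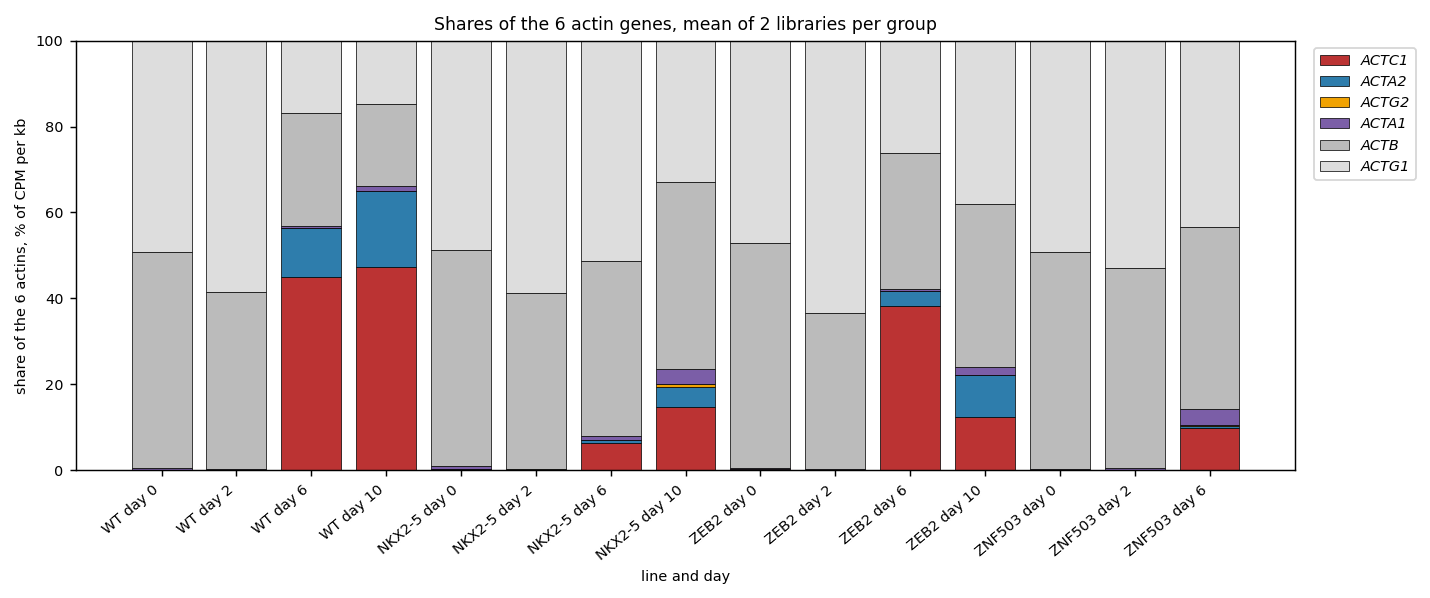
Stacked bars give the share of each of the 6 actin genes, in percent of their summed CPM per kilobase, as the mean of the 2 libraries of each group. The red ACTC1 block fills 45% and 47.3% of the bar in WT at days 6 and 10, and the blue ACTA2 block grows from 11.3% to 17.6%, while the grey nonmuscle actins ACTB and ACTG1 fill most of every day 0 and day 2 bar.

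Some of the 10 genes have several RefSeq rows or share exons with genes on the other strand. The rows of all but MYLK held at least 85.4% of the largest row's counts. For MYLK 2 of 6 rows, those of short transcripts, held 25.2% of the counts of the long one over all libraries. This ratio was 29.4% and 45.5% in NKX2-5 shRNA, 26% and 21.5% in ZEB2 shRNA and 51% and 83.3% in WT cells at day 10, the last 2 from 49 and 12 counts of the long row. The smallest row of MYLK is 1 of these 2, so every result with it is for a short transcript and not for the long one. With that row, the value was still higher in NKX2-5 shRNA cells than in WT at day 10 (log2 3.36 ± 0.41, edgeR adjusted p = 0.00104). Libraries were made with a stranded kit, but whether the counting used strand was not stated, so reads from a gene and an overlapping gene on the other strand may not be told apart. TAGLN shares 2233 exonic bases with PCSK7, which was at 20.7 CPM in WT, 58 CPM in NKX2-5 shRNA and 31.2 CPM in ZEB2 shRNA cells at day 10. ACTA2 shares 380 with FAS and 1638 with ACTA2-AS1, and FAS was at 0.972 to 3.41 CPM as group means at day 10. MYH11 shares 1063 bases with NDE1, at 11.3 CPM in WT and 29.8 CPM in ZEB2 shRNA cells at day 10, a level above that of MYH11 itself, and MYLK shares 612 with MYLK-AS1, at 2.19 CPM in WT, 2.16 CPM in NKX2-5 shRNA and 4.9 CPM in ZEB2 shRNA cells at that day, so that in ZEB2 shRNA cells it lay above WT as MYLK did.

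Regulators of the set were read next. Of 13 regulators, 1 was called lower at day 6 in NKX2-5 shRNA and in ZNF503 shRNA cells, against 4.71% and 3.91% of all genes. This was MYOCD, the myocardin gene. It was at 548 and 404 CPM in WT, 5 and 5.03 CPM in NKX2-5 shRNA, 11 and 7.7 CPM in ZNF503 shRNA and 296 and 258 CPM in ZEB2 shRNA cells (log2 -6.58 ± 0.21, -5.69 ± 0.21 and -0.78 ± 0.16, adjusted p = 6.0e-10, 1.9e-09 and 0.0082). At day 10 MYOCD was still low in NKX2-5 shRNA cells, at 14.2 and 13.7 CPM against 318 and 363 CPM (log2 -4.61 ± 0.24, adjusted p = 0.000151), where MYLK, ACTG2 and SMTN stood above WT. SRF itself did not pass at day 10 in either line (log2 -0.34 ± 0.25, adjusted p = 0.296, in NKX2-5 shRNA cells). FOXF1, a forkhead factor of visceral mesoderm, was called higher in NKX2-5 shRNA cells at day 10, at 18.6 and 28.3 CPM against 1.24 and 0.968 CPM (log2 4.38 ± 0.37, adjusted p = 0.000319). FHL2, a LIM protein of heart and smooth muscle, was called lower at day 10 in NKX2-5 shRNA and ZEB2 shRNA cells, at 18.4 and 9.5 CPM and at 9.92 and 6.02 CPM against 187 and 140 CPM in WT (log2 -3.54 ± 0.40 and -4.36 ± 0.42, adjusted p = 0.000821 and 0.00222). In all, 3 of 13 regulators were called in NKX2-5 shRNA cells at day 10, 1 of them higher, and 7 passed at 5% FDR, 4 of them higher, where 7.31% of all genes were called and 43.9% passed.

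Striated and nonmuscle counterparts of the set differed from WT in opposite directions. Of 10 striated muscle counterparts tested at day 6, 9 were called lower in NKX2-5 shRNA and 8 in ZNF503 shRNA cells, and none in ZEB2 shRNA cells, where 9 passed lower at 5% FDR, against 4.71%, 3.91% and 0.462% of all genes called and 11% passing in ZEB2 shRNA cells. MYH6, the atrial myosin heavy chain, was at 4619 and 3949 CPM in WT, 0.662 and 0.461 CPM in NKX2-5 shRNA and 13.8 and 8.1 CPM in ZNF503 shRNA cells (log2 -12.96 ± 0.32 and -8.63 ± 0.26, adjusted p = 1.1e-10 and 4.7e-10). TNNT2 and MYH7 fell in NKX2-5 shRNA cells by 9.11 and 10.10 on the log2 scale (adjusted p = 1.1e-10 and 1.8e-10). At day 10, 9 of 11 were called lower in NKX2-5 shRNA cells, against 7.31% of all genes. MYH6 was at 3.86 and 81.7 CPM against 7514 and 6539 CPM in WT. The log2 difference was -6.35 ± 1.31 (edgeR adjusted p = 0.00769) for TNNT2 and -6.32 ± 0.43 (adjusted p = 0.000169) for MYH7. The nonmuscle counterparts went the other way at that day: 8 of 12 passed higher at 5% FDR and none lower, against 43.9% of all genes in either direction, and TAGLN2, the transgelin of cells that are not muscle, was called, at 149 and 197 CPM against 21.9 and 18.5 CPM (log2 3.10 ± 0.24, adjusted p = 0.000267). With ZEB2 shRNA 6 of 12 passed higher and none lower, against 18.2%.

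Of 15 tested genes of myosin phosphorylation and calcium entry, 8 passed lower and 3 higher at 5% FDR in NKX2-5 shRNA cells at day 6, and 5 lower and 4 higher at day 10, against 49.1% and 43.9% of all genes in either direction. CACNA1C, the L-type calcium channel, was called lower at both days, at 2.1 and 2.66 CPM against 43.1 and 38.9 CPM at day 6 and at 12 and 12.4 CPM against 274 and 349 CPM at day 10 (log2 -4.09 ± 0.24 and -4.67 ± 0.24, adjusted p = 5.3e-08 and 0.000152), and at day 6 also in ZNF503 shRNA cells (log2 -4.07 ± 0.25, adjusted p = 1.0e-07). PRKG1, the cGMP-dependent kinase, was called lower in NKX2-5 shRNA cells at day 6 and day 10 (log2 -3.21 ± 0.22 and -3.17 ± 0.40, adjusted p = 2.1e-07 and 0.00118). KCNMA1, a calcium-activated potassium channel, was called higher in ZEB2 shRNA cells at day 10, at 88.7 and 67.5 CPM against 5.46 and 2.8 CPM (log2 4.19 ± 0.54, adjusted p = 0.00423), while in NKX2-5 shRNA cells it was at 3.24 and 9.26 CPM. Of 15 genes of the smooth muscle cytoskeleton and membrane, 9 passed lower and 2 higher in NKX2-5 shRNA cells at day 6, and 5 lower and 5 higher at day 10, against the same shares of all genes. DES, the muscle intermediate filament, was called lower at day 6 in NKX2-5 shRNA and ZNF503 shRNA cells, at 0.735 and 1.28 CPM and at 0.712 and 0.81 CPM against 15.9 and 16.2 CPM (log2 -3.95 ± 0.31 and -4.39 ± 0.34, adjusted p = 6.8e-07 and 7.3e-07), as was the integrin gene ITGA8 in ZNF503 shRNA cells (log2 -3.71 ± 0.33, adjusted p = 2.6e-06). SGCA, a sarcoglycan, was at 13.2 and 19.6 CPM in WT at day 10 and at 0 and 0.236 CPM in NKX2-5 shRNA cells, for which no fold is given. FILIP1L was called higher there, at 227 and 212 CPM against 24.2 and 17 CPM (log2 3.41 ± 0.25, adjusted p = 0.000201).

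Ligands and receptors of the TGFβ pathway, which induces several of these genes in mesenchyme, also differed from WT. TGFB2 was at 502 and 429 CPM in WT at day 6 and 36.6 and 32.1 CPM in NKX2-5 shRNA cells, and at 1066 and 1138 CPM and 59.6 and 77.4 CPM at day 10 (log2 -3.77 ± 0.14 and -4.01 ± 0.24, adjusted p = 1.6e-09 and 0.000165). TGFB3 was called lower at both days as well (log2 -4.00 ± 0.38 and -3.11 ± 0.56, adjusted p = 3.2e-06 and 0.0045), and the receptor gene TGFBR3 was called higher at day 10, at 269 and 245 CPM against 33.1 and 18.5 CPM (log2 3.31 ± 0.31, adjusted p = 0.000448). So 2 of the 6 genes were called lower at day 6, and 2 lower and 1 higher at day 10, against 4.71% and 7.31% of all genes.

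Markers of some other cell types moved with these differences, and their part in them was not tested. The 9 CM markers summed to 9245 to 11735 CPM in WT at day 6, where ACTA2 and LMOD1 were high, to 5151 to 5629 CPM in ZEB2 shRNA cells, 160 to 219 CPM in ZNF503 shRNA cells and 40.9 to 50.1 CPM in NKX2-5 shRNA cells, where TNNI3 had at most 3 counts in each library. All 9 were called lower at day 6 in both NKX2-5 shRNA and ZNF503 shRNA cells, against 4.71% and 3.91% of all genes. At day 10, beside the higher MYLK, ACTG2 and SMTN, 8 fibroblast or mesenchyme markers summed to 1060 to 1595 CPM in WT, 3623 to 6309 CPM in NKX2-5 shRNA and 6104 to 7052 CPM in ZEB2 shRNA cells. Of these, 6 of 8 were higher at 5% FDR in each line, against 43.9% and 18.2% of all genes in either direction. Group means of TWIST1 were lower, at 2.93 CPM in NKX2-5 shRNA and 2.63 CPM in ZEB2 shRNA cells against 9.65 CPM in WT. Those of PDGFRA were 187, 272 and 227 CPM in that order. In the order WT, NKX2-5 shRNA and ZEB2 shRNA, the 6 hepatic markers summed to 1982 to 5072 CPM, 36466 to 48642 CPM and 9540 to 11292 CPM. All 6 were higher in NKX2-5 shRNA cells at 5% FDR, against 43.9% of all genes in either direction. The 6 epithelial markers summed to 560 to 710 CPM, 1872 to 2334 CPM and 1899 to 2080 CPM. Pericyte markers, at 328 to 358 CPM, 395 to 449 CPM and 265 to 274 CPM in sum, were split, with 3 higher and 3 lower in NKX2-5 shRNA cells. Endothelial markers summed to 344 to 440 CPM in WT, 160 to 254 CPM in NKX2-5 shRNA and 364 to 437 CPM in ZEB2 shRNA cells. Epicardial markers summed to 23.9 to 43.1 CPM, 21.1 to 41 CPM and 56.8 to 67.5 CPM in the same order. Of 6 skeletal muscle markers, MYOD1 and MYF5 had no count in any library of day 10, and MYOG and CHRNA1 were too low to be tested. MYH3 was higher in NKX2-5 shRNA cells than in WT, at 10.7 and 7.32 CPM against 3.87 and 3.12 CPM (log2 1.37 ± 0.37, adjusted p = 0.0207), and CKM, which the heart also expresses, was called lower, at 0 and 1.28 CPM against 274 and 224 CPM. At day 0, where TAGLN, CNN1, MYL9 and ACTG2 differed, none of the 5 pluripotency markers tested passed at 5% FDR in any line.

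Across the 15 group means on the log2(CPM + 1) scale, ACTA2 ran closely with MYL9, LMOD1 and CNN1 (Pearson r = 0.95, 0.91 and 0.87), MYL9 ran with CNN1 and TAGLN (0.87 each) and with LMOD1 (0.82), ACTG2 ran with SMTN (r = 0.79) and MYLK ran against MYL9 and ACTA2 (r = -0.64 and -0.61). These values describe groups that share lines and days. Among 15341 genes with a mean of at least 1 CPM, the genes whose patterns were most like that of ACTA2 were ZFPM2, a cofactor of GATA factors in the heart, and GUCY1A1 (both r = 0.991). The gene most like LMOD1 was MYH7 (r = 0.976). For the others these were ISG15 for ACTG2 (r = 0.953), ANXA1 for TAGLN (0.886), CSRP1 for CNN1 (0.968), SPTBN1 for MYH11 (0.949), RGL1 for MYL9 (0.975), TUBG1 and ARRB2 for MYLK (0.957 each), PIK3C2G and ACSL5 for SMTN (0.982 each) and ATF3 for CALD1 (0.948).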

How the data were processed

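RNA-seq of 34 libraries was deposited as 1 table of raw counts per RefSeq transcript. The authors mapped reads to GRCh37 and counted them per RefSeq gene region with RSeQC; the submitters' processing notes name TopHat2 2.0.14, Bowtie2 2.2.1.0 and SAMtools 0.1.19.0. Whether strand was used is not given in the sources used here. Of 41627 accessions, 40285 (96.8%, with 97.1% of counts) matched a symbol in the RefSeq table of GRCh38.p14, used for names only, giving 23189 symbols, 7913 of them with several rows. Reads shared by transcripts count in each row. The columns of WT and ZEB2 shRNA day 10 replicates 1 and 2 held 42704 values instead of 41627, their order did not follow the accessions (median Spearman correlation with replicate 3 of 0.00792 to 0.0131 over blocks of 1000 rows, against 0.984 and 0.993 for replicate 4), and they were left out, so 30 libraries in 15 groups were used. Gene positions come from GENCODE for GRCh37.

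Counts were tested in R 4.3.3 with edgeR 4.0.16 (TMM, filterByExpr, quasi-likelihood test, limma 3.58.1), with 1 fit per day for knockdowns, 1 per line for changes over time and 1 per interval for interactions. Lines of a day share their WT libraries. SEs were derived from the size of the log2 fold change and its F statistic. DESeq2 1.42.0 was an alternative. On simulated data for NKX2-5 shRNA against WT at day 6 (14552 genes), 85% of changes of log2 1 and 100% of log2 3 were recovered. The simulation changed 100 genes at each size, where 49.1% of all genes passed at 5% FDR in the real comparison. It held only genes of at least 1 CPM and took each gene's spread from the trend over genes, so these rates do not cover scarce genes such as ACTG2. Totals were 9189943 to 90814577 counts, and intervals and floors cover counting error only. No pair of replicates differed by less than the sampling noise. Replicate numbers were not taken to pair libraries, since not every correlation of replicate differences between groups was over 0.1 at any day (-0.299 to 0.0581 at day 0, 0.00314 to 0.44 at day 2, -0.164 to 0.0996 at day 6 and -0.239 at day 10). Other lists named at most 3 genes per day, those with the largest called change at day 6 or 10 and a mean of at least 1 CPM in the higher group. The likeness of patterns used log2(CPM + 1). The members and all lists were chosen with earlier results of these data known.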

Additional observations from a re-analysis of the deposited data

Results flagged for a closer look

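In 11 cases the change of a gene between successive days differed between an shRNA line and WT past the threshold of the later day, by edgeR's test of the interaction (values are log2, shRNA line minus WT). From day 0 to day 2, TAGLN changed by -2.63 ± 0.33 in NKX2-5 shRNA (adjusted p = 0.00015), -4.48 ± 0.34 in ZEB2 shRNA (adjusted p = 2.8e-06) and 2.94 ± 0.34 in ZNF503 shRNA cells (adjusted p = 8.5e-06) relative to WT. Over these days TAGLN went from 235 and 257 CPM to 16.7 and 18.8 CPM in ZEB2 shRNA cells and from 9.26 and 9.29 CPM to 126 and 107 CPM in ZNF503 shRNA cells. MYL9 differed in ZEB2 shRNA cells by -2.30 ± 0.35 (adjusted p = 0.00202), and ACTG2 in ZNF503 shRNA cells by 4.17 (adjusted p = 0.0515), a fitted value that rests on 3 counts in WT at day 2. Without NKX2-5 shRNA day 0 replicate 2 the TAGLN value of that line was -1.92.

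From day 2 to day 6, the rise of LMOD1 was smaller in NKX2-5 shRNA cells by 6.71 (log2 -6.71 ± 0.56, adjusted p = 8.5e-08) and in ZNF503 shRNA cells (log2 -5.10 ± 0.52, adjusted p = 6.8e-07), and that of CNN1 was smaller in NKX2-5 shRNA cells (log2 -3.85 ± 0.34, adjusted p = 1.7e-07). From day 6 to day 10, ACTA2 (3.44), LMOD1 (4.36) and MYLK (4.0) changed more in NKX2-5 shRNA cells than in WT. The comparisons of each interval share the WT libraries.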

How the results depend on the processing

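The alternatives left most results with their direction and their side of the threshold. Of 250 results each, 248 did so with DESeq2's size factors, 238 without scaling factors (which moved the median of all genes by up to 0.182 on the log2 scale, in ZEB2 shRNA at day 10), 245 without a filter on low counts, 244 with DESeq2, 238 with each gene's smallest row, 249 with the row of largest total over 34 columns and 228 in 1 fit of all libraries. With 1 library left out, 1921 of 2142 values did so, 178 lost their call and 28 changed sign. The smallest row, the row over 34 columns and the crossed block were chosen after seeing the data. The alternative of the longest transcript's row was not run. CPM on total counts moved 18 of 150 group levels by more than the replicate SD.

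Replicate numbers were not taken to pair the libraries: correlations of replicate differences over 15351 genes were -0.299 to 0.44, and at day 2, where none was negative, 4 of 6 were over 0.1. With the replicate block, 187 of 194 results were kept, and ACTA2 (adjusted p = 0.00222), CNN1 (0.0161) and MYH11 (0.0488) passed in ZEB2 shRNA at day 10, where the numbers crossed (correlation -0.239) made 5 of 10 results pass. The day 10 fits with a block held only the WT and ZEB2 shRNA libraries. The block gave 0 called genes for NKX2-5 against ZNF503 shRNA at day 6, 1 for WT from day 0 to 2 and 1 for NKX2-5 shRNA from day 0 to 2, and MYH11 in ZNF503 shRNA at day 0 was -0.0021.

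With 5% FDR and no fold threshold the called genes against WT numbered 2 in ZNF503 shRNA at day 0, 2 (NKX2-5), 2 (ZEB2) and 4 (ZNF503) at day 2, 6, 3 and 8 at day 6, and 7 and 4 (NKX2-5, ZEB2) at day 10. Between lines they were 6, 6 and 6 at day 6 and 3 at day 10. Over time they were 6, 9 and 7 in WT, 4, 6 and 8 in NKX2-5 shRNA, 8, 9 and 7 in ZEB2 shRNA and 5 and 9 in ZNF503 shRNA cells, and for interactions 2, 7 and 8 (NKX2-5), 2 and 2 (ZEB2, from day 2) and 5 (ZNF503, day 2 to 6). Counts of called genes also moved elsewhere, and the cause was not tested. NKX2-5 shRNA at day 2 had 0 with DESeq2, the smallest row, the row over 34 columns and 1 fit. NKX2-5 against ZNF503 shRNA at day 6 had 0 without scaling. NKX2-5 against ZEB2 shRNA at day 10 had 1 without a filter, with DESeq2 and in 1 fit. WT from day 0 to 2 had 1 without a filter and with DESeq2, and NKX2-5 shRNA 1 with DESeq2. The ZNF503 shRNA interaction had 1 in 1 fit (day 0 to 2), and 2 without a filter, with DESeq2 and with the smallest row (day 2 to 6).

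Leaving out 1 library gave 0 to 1 called genes for ZNF503 shRNA at day 0, NKX2-5 and ZNF503 shRNA at day 2, NKX2-5 against ZNF503 shRNA at day 6, NKX2-5 against ZEB2 shRNA at day 10, WT from day 0 to 2 and the interactions of NKX2-5 (day 0 to 2) and ZEB2 shRNA (day 2 to 6), 1 to 2 for NKX2-5 shRNA at day 10 and both ZNF503 shRNA interactions, 1 to 4 for NKX2-5 shRNA from day 0 to 2 and 1 to 3 from day 6 to 10.

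The sign changes were all of values that had passed no threshold. Without scaling, TAGLN and LMOD1 in NKX2-5 shRNA at day 2 were -0.0095 and -0.0056 and TAGLN in ZEB2 shRNA at day 6 was 0.01. SMTN in NKX2-5 shRNA at day 0 was 0.02 in 1 fit, and MYLK in ZEB2 shRNA at day 6 was -0.22 with its smallest row. ACTA2 in WT from day 6 to 10 was -0.0038 (DESeq2's size factors), -0.01 (no scaling), -0.13 (no filter), -0.0058 (DESeq2) and -0.0047 (1 fit). With 1 library left out the ranges that crossed 0 were -0.16 to 0.16 (SMTN, NKX2-5, day 0), -0.61 to 0.73 (ACTA2, ZEB2, day 0), -0.07 to 0.56 and -0.27 to 0.36 (MYH11, ZEB2 and ZNF503, day 0), -0.18 to 1.42 and -0.25 to 0.33 (MYH11 and LMOD1, NKX2-5, day 2), -0.25 to 0.44 (LMOD1, ZNF503, day 2), -0.06 to 0.19 and -0.20 to 0.43 (MYLK and SMTN, NKX2-5, day 6), -0.20 to 0.21, -0.57 to 0.06 and -0.31 to 0.42 (TAGLN, MYH11 and MYLK, ZEB2, day 6), -0.22 to 0.40 (SMTN, ZNF503, day 6), -1.24 to 0.20 (MYH11, NKX2-5, day 10) and -0.27 to 0.33 (ACTA2, WT from day 6 to 10). ACTA2 and ACTG2 at day 2 and ACTG2 at day 6 rest on few counts, which limits their ratios.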
